A study of Mus musculus with 4 samples.

Results

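A set of 9 genes of blood coagulation and fibrinolysis was followed in cultured mouse spermatogonia, namely F13a1, F3, Tfpi, Thbd, Procr, Plat, Plau, Plaur and Serpine2. They were found by gene name among the 32285 genes of the deposited count table, and all 9 of 9 were present, 1 row each. The cells were GS cells, spermatogonia kept in culture, which had been set up from testes of wild-type mice aged 10 days. There were 2 libraries from strain 129 and 2 from C57BL/6 (B6, whose titles also carry the letters F0), and the labels give no treatment. The comparison asks how expression differs between the strains. Whether the replicates of a strain are separate cultures or animals is not stated. The p-values given here therefore rest on a spread among samples that could be technical. The 9 genes were chosen by their pathway with their CPM in these same 4 libraries already known. Their strain differences are therefore given as descriptions, without a p-value.

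Clotting starts when tissue factor, the product of F3, meets factor VII of the blood, and ends with thrombin cutting fibrinogen to fibrin, which the factor XIII transglutaminase then cross-links. Tfpi encodes the inhibitor of the tissue factor step, and thrombomodulin (Thbd) with the endothelial protein C receptor (Procr) turns thrombin towards activating the anticoagulant protein C. Fibrin is taken down by plasmin, made from plasminogen by tissue-type (Plat) or urokinase-type (Plau) plasminogen activator. Plaur holds urokinase at the cell surface and Serpine2 inhibits thrombin and both activators. In the rat testis, plasminogen activators are known from Sertoli cells.

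The libraries held 20798809 and 20375086 counts in 129, against 25374801 and 20488618 counts in B6. Values are given as CPM, counts divided by library sizes scaled with TMM. Markers of germ cells, such as Dazl and Ddx4, summed to 2274 and 3008 CPM over 10 genes in 129, against 3239 and 3416 CPM in B6, and all 10 were above 1 CPM in at least 1 library. Of the 10, edgeR's quasi-likelihood test passed Etv5 as higher in 129 (adjusted p = 0.0318). Etv5 was at 202 and 234 CPM in 129, against 59.2 and 80.4 CPM in B6. The other 9 did not pass, and the list's median log2 fold change of 129 over B6 was -0.49. At an unadjusted p under 0.05 in edgeR there were 5 of the 10, beside 28.1% of all genes tested. DESeq2 passed 2, Etv5 and, lower in 129, Mael, beside 15.3% of all genes tested. A list of 12 fibroblast markers summed to 3014 and 1322 CPM in 129, against 3968 and 2562 CPM in B6. Germ cell markers were thus present as the label says, next to fibroblast markers. In bulk RNA, fewer cells of a type and less RNA per cell cannot be told apart.

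All 9 genes passed the filter on low counts, F13a1 only through its 129 libraries. Of the 9, edgeR's quasi-likelihood test passed 1 as higher in 129, F13a1, and 0 as lower, where it passed 2.86% of all 16005 genes tested (1.84% as higher and 1.02% as lower). The libraries of the strains did not overlap for 4 of the 9 genes, against 60.1% of all genes tested. Of these 4, F13a1 and Thbd were higher in 129, as were 31.0% of all genes tested, and Plat and Plau were lower in 129, as were 29.2%. Since the genes were chosen with these values known, nothing is read from those counts. The median log2 fold change of 129 over B6 was -0.058 over the 9 genes, beside 0.015 over all genes tested.

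F13a1, which encodes the catalytic A chain of factor XIII, showed the widest gap between the strains among the 9 genes. It had 1700 and 1299 counts in the 129 libraries, against 5 and 1 counts in the B6 libraries. In CPM these were 82.1 and 61.6 in 129, against 0.201 and 0.0495 in B6. Both 129 libraries stood far above both B6 libraries, and the 129 libraries lay 1.33-fold apart. The means were 71.9 ± 14.5 CPM in 129 and 0.125 ± 0.107 CPM in B6 (SD, n = 2 each), and the fitted log2 fold change of 129 over B6 was 9.02 (SE 0.51). The ratio of the summed counts, 2999 in 129 against 6 in B6, was 539 after scaling, with an exact 95% counting interval of 247 to 1471. Such an interval leaves out all but counting error, and PCR copies cannot be told from separate molecules here. The log2 fold change ranged from 8.40 without B6 replicate 2 to 10.33 without B6 replicate 1, and each of these values rests on a single B6 library.

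F13a1 (ENSMUSG00000039109) lies on the minus strand of chromosome 13, from 36867178 to 37050244 in GRCm38, with 18 blocks of exons. Its exons share 74 bases with Gm30489, an antisense gene that was not among the genes tested, and the counting's use of strand is unknown here. No gene with exons shared with the other 8 members was annotated. Within 500 kb of F13a1 lay 2 other tested genes. Summed over the 9 genes there were 127 tested neighbours within that distance, of which edgeR called 0. Of these neighbours 28 had an unadjusted p under 0.05 in edgeR, a share of 22.0% beside 28.1% of all genes tested. DESeq2 called 13 of them, a share of 10.2% beside 15.3% of all genes tested. F13a1 is the member with the largest difference, so the 250 bases before its outermost RefSeq start are shown, at chr13:37050245-37050494 of GRCm38.p6, read 5′ to 3′ along the gene. The sequence is that of the C57BL/6J reference, and the 129 sequence was not analysed here. Capitals mark the 1 match found among the searched motifs, a CCAAT box on the opposite strand.
F13a1: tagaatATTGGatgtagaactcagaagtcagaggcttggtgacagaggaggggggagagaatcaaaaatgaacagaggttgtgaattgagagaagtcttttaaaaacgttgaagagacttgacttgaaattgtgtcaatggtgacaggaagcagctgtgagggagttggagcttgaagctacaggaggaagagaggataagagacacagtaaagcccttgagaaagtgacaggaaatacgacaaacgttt

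In mice and humans factor XIII A is known from megakaryocytes, platelets and macrophages, so their markers are given beside it. Of 8 platelet and megakaryocyte markers, 7 stayed under 1 CPM in every library, Pf4, Gp9 and Ppbp among them. The list summed to 10.1 and 3.70 CPM in 129, against 2.73 and 3.76 CPM in B6, most of it Itga2b at 8.99 and 3.27 CPM in 129, against 2.05 and 3.12 CPM in B6. Ppbp was the next most abundant. Of 13 macrophage markers, 5 stayed under 1 CPM throughout, namely C1qa, C1qb, C1qc, Fcgr1 and Ptprc, and Cd14 and Lyz2 were the most abundant. Of the 7 tested, 0 passed in edgeR, where 1 had an unadjusted p under 0.05, and DESeq2 passed 1, Cd14. Cd14 had a log2 fold change of 2.67 (SE 0.64, edgeR adjusted p = 0.0633). The macrophage list summed to 57.3 and 30.1 CPM in 129, against 37.9 and 36.5 CPM in B6, and its libraries overlapped between the strains. Cd14 was higher in both 129 libraries, at 28.3 and 9.20 CPM, against 2.45 and 3.47 CPM in B6. Lyz2 was lower in both 129 libraries, at 7.87 and 3.32 CPM, against 9.72 and 16.8 CPM in B6. The part of these cells in the level of F13a1 was not tested.

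The 3 genes named here came closest to F13a1 in their pattern over the 4 libraries, measured as the root mean square difference of log2 CPM after centring each gene. They were Lpl (lipoprotein lipase), at a distance of 0.908, Krt80 (a keratin) at 0.981 and Tnr (tenascin R) at 0.995. Since they were picked for this pattern, their levels are given without a test. Lpl was at 1477 and 344 CPM in 129, against 4.78 and 4.41 CPM in B6. Krt80 was at 56.2 and 15.3 CPM in 129, against 0.281 and 0.0990 CPM in B6. Tnr was at 236 and 83.3 CPM in 129, against 0.161 and 0.644 CPM in B6. Their 129 libraries lay further apart than those of F13a1. With 4 libraries such likeness describes these samples only.

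**Figure D1:**
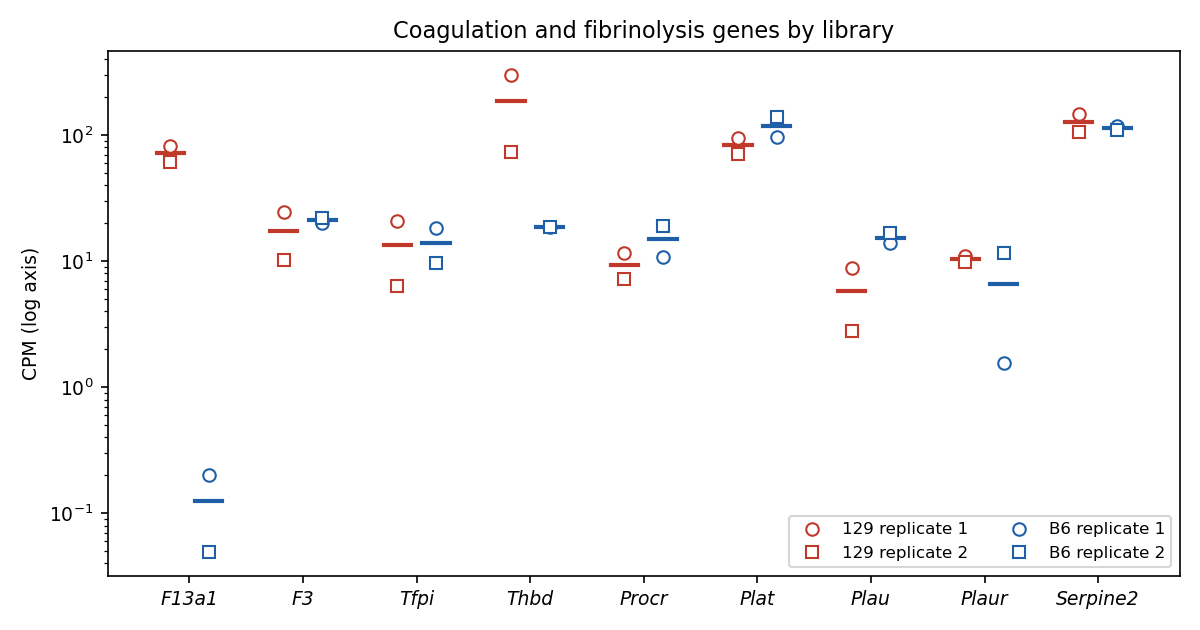
Expression of the 9 genes in each library, in CPM on a log axis. Circles are replicate 1, squares are replicate 2 and bars are strain means, with 129 in red left of B6 in blue. F13a1 and Thbd have both 129 libraries above both B6 libraries, Plat and Plau have both below, and the strains overlap for the other 5.

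F3 and Tfpi, the start of the clotting cascade and its inhibitor, overlapped between the strains. They lie at chr3:121723537-121735048 (F3) and chr2:84432855-84476775 (Tfpi) of GRCm38. F3 was at 24.4 and 10.3 CPM in 129, against 20.1 and 22.1 CPM in B6. The B6 libraries lay between the 129 libraries, and the log2 fold change of 129 over B6 was -0.28 (SE 0.45). Tfpi was at 20.7 and 6.35 CPM in 129, against 18.3 and 9.65 CPM in B6. Replicate 1 was the higher library in both strains, 3.25-fold in 129 and 1.90-fold in B6, and the strain means of 13.5 ± 10.1 CPM in 129 and 14.0 ± 6.13 CPM in B6 (SD, n = 2 each) differed by less than that spread. The sign of both fold changes turned when 129 replicate 2 was left out, to 0.21 for F3 and 0.56 for Tfpi on the log2 scale. That of Tfpi also turned without B6 replicate 1, to 0.48.

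Of the receptors of the protein C pathway, Thbd was higher in both 129 libraries and Procr overlapped between the strains. Thbd was at 303 and 73.2 CPM in 129, against 18.8 CPM in each B6 library. Both 129 libraries lay above B6, but replicate 1 exceeded replicate 2 by 4.14-fold. The means were 188 ± 162 CPM in 129 and 18.8 ± 0.00159 CPM in B6 (SD, n = 2 each). From 2 libraries with 467 and 379 counts, so small an SD is no measure of how Thbd varies in B6. The log2 fold change was 3.32 (SE 0.64). It was 1.97 without 129 replicate 1 and 4.01 without 129 replicate 2, with the lower of these values resting on 129 replicate 2 alone. Procr was at 11.6 and 7.21 CPM in 129, against 10.9 and 19.1 CPM in B6, and the strains overlapped. Its log2 fold change was -0.66 (SE 0.45), between -0.25 without B6 replicate 2 and -1.04 without 129 replicate 1. Thbd, a gene of a single exon of 3723 bases, lies at chr2:148404466-148408188 and Procr at chr2:155751117-155755471 of GRCm38.

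Endothelial cells are the best known source of Thbd, Procr and Tfpi. Of 11 endothelial markers, 4 stayed under 1 CPM in every library, namely Emcn, Esam, Sox17 and Tie1, and Sox17 had no count. Cdh5 and Eng rose in 129 and Erg fell (edgeR adjusted p = 0.0387, 0.0350 and 0.0389), and the other 4 of the 7 tested did not pass in edgeR, nor in DESeq2. Cdh5 was at 87.9 and 27.0 CPM in 129, against 0.723 and 2.62 CPM in B6, while Erg, the most abundant, was at 33.0 and 49.4 CPM in 129, against 158 and 112 CPM in B6. Flt1, the next most abundant, did not pass, at 78.1 and 105 CPM in 129, against 29.6 and 67.8 CPM in B6. Over the 7 tested the median log2 fold change was 0.91. Of them 4 had an unadjusted p under 0.05 in edgeR, beside 28.1% of all genes tested. The list summed to 309 and 230 CPM in 129, against 203 and 201 CPM in B6, and Pecam1 had a log2 fold change of 0.31 (SE 0.49) without passing. The part of these cells in the values of Thbd, Procr and Tfpi was not tested.

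The plasminogen activators Plat and Plau both had their 129 libraries below their B6 libraries. Plat lies at chr8:22757727-22782844 and Plau at chr14:20836660-20843385 of GRCm38. Plat was at 95.2 and 70.7 CPM in 129, against 96.7 and 140 CPM in B6. The higher 129 library and the lower B6 library nearly met, and the log2 fold change was -0.51 (SE 0.26). Plau was at 8.89 and 2.80 CPM in 129, against 14.1 and 16.7 CPM in B6. Its means were 5.84 ± 4.31 CPM in 129 and 15.4 ± 1.85 CPM in B6 (SD, n = 2 each), a log2 fold change of -1.39 (SE 0.55). The Plau fold change was -0.79 without 129 replicate 2 and -2.45 without 129 replicate 1.

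The urokinase receptor gene Plaur was set apart by 1 B6 library. It lies at chr7:24462484-24475968 and Serpine2 at chr1:79794197-79861180 of GRCm38. Plaur was at 11.1 and 9.86 CPM in 129, against 1.57 and 11.7 CPM in B6. B6 replicate 2 was above both 129 libraries and 7.49-fold above B6 replicate 1. The log2 fold change of 0.69 (SE 0.79) became -0.17 without B6 replicate 1 and 2.69 without B6 replicate 2. Serpine2, the protease inhibitor also called protease nexin 1, was at 147 and 106 CPM in 129, against 119 and 111 CPM in B6. The strains overlapped, and the means of 127 ± 28.9 CPM in 129 and 115 ± 5.44 CPM in B6 (SD, n = 2 each) lay within the spread of the 129 libraries. Its log2 fold change of 0.14 (SE 0.22) was -0.11 without 129 replicate 1.

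**Figure D2:**
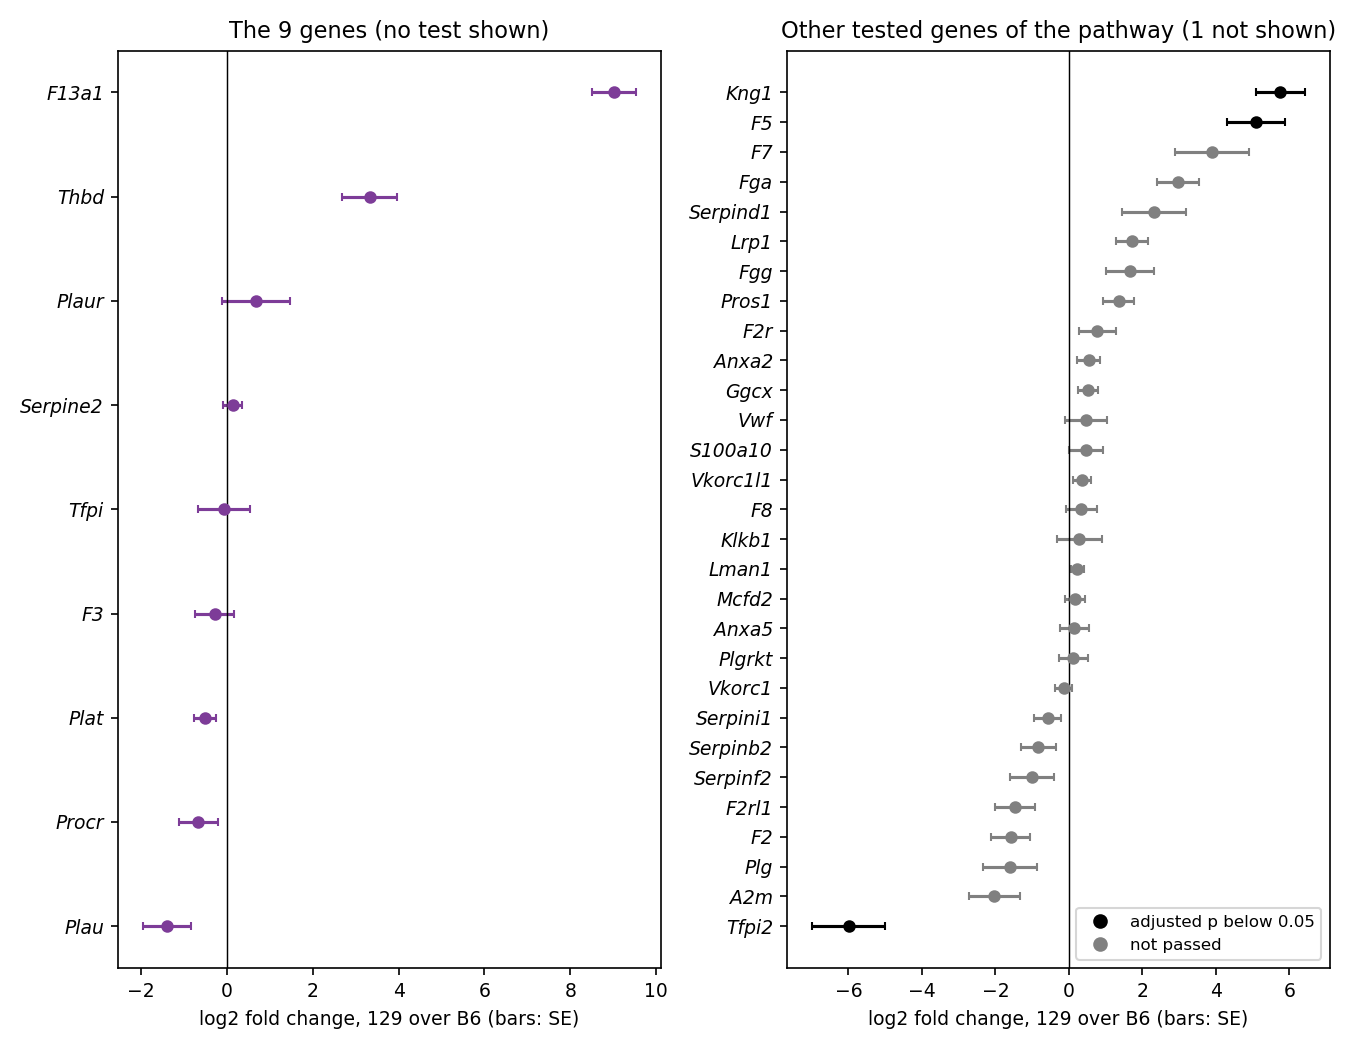
Log2 fold change of 129 over B6 for the 9 genes (left, purple) and for other coagulation and fibrinolysis genes that were tested (right, all but 1 of the 30), with bars showing the SE and a separate scale in each panel. Among the others, Kng1 and F5 passed above 0 and Tfpi2 below 0 (black), while the genes in grey did not pass, and F13a1 is the highest of the 9 genes at 9.02.

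Divided by exon length, to compare one gene with another, the order of the levels differed between the strains. In 129, Thbd led with a mean of 50.5 CPM per kb, apart from Serpine2 at 15.3, Plat at 13.3 and F13a1 at 10.7 CPM per kb. From Serpine2 down to Plau, at 2.47 CPM per kb, each gene's libraries overlapped those of the next. In B6, Plat led with 19.0 CPM per kb, apart from Serpine2 at 13.8, which stood apart from F3 at 8.36. F3, Procr at 7.37 and Plau at 6.49 CPM per kb overlapped one with the next in that order. Thbd was sixth in B6 at 5.04 CPM per kb, and F13a1 was last at 0.0186 CPM per kb, below Plaur at 2.54. Plau stood above Thbd in both B6 libraries, with 5.94 and 7.05 CPM per kb, and below it in both 129 libraries.

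The libraries of a strain differed for many of these genes, and in 129 always in the same direction. All 9 genes were higher in 129 replicate 1 than in replicate 2, from 1.12-fold for Plaur to 4.14-fold for Thbd, where 49.5% of all genes tested were. Of them 4 (Thbd, Tfpi, Plau and F3) lay more than 2-fold apart, as did 14.1% of all genes tested. Since the genes were chosen with these values known, nothing is read from such counts in either strain. Between the same 129 libraries, replicate 1 over replicate 2, the fibroblast markers had a median log2 ratio of 1.25, the germ cell markers of -0.35 and all genes tested of -0.0048. In macrophage markers that median was 1.09, in peritubular muscle markers 0.67, in Sertoli cell markers 0.075 and in endothelial markers -0.42. The same ratio was 2.05 for Thbd, 1.70 for Tfpi, 1.67 for Plau, 1.25 for F3 and 0.42 for F13a1. In B6, 3 genes were higher in replicate 1 and 6 in replicate 2, and 2 genes, F13a1 and Plaur, lay more than 2-fold apart (16.4% of all genes tested did). Between the B6 libraries the medians were 0.22 for fibroblast, -0.50 for macrophage, 1.38 for peritubular muscle, -0.49 for Sertoli cell and -0.078 for endothelial markers. The part of any of these cell types in the differences was not tested.

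**Figure D3:**
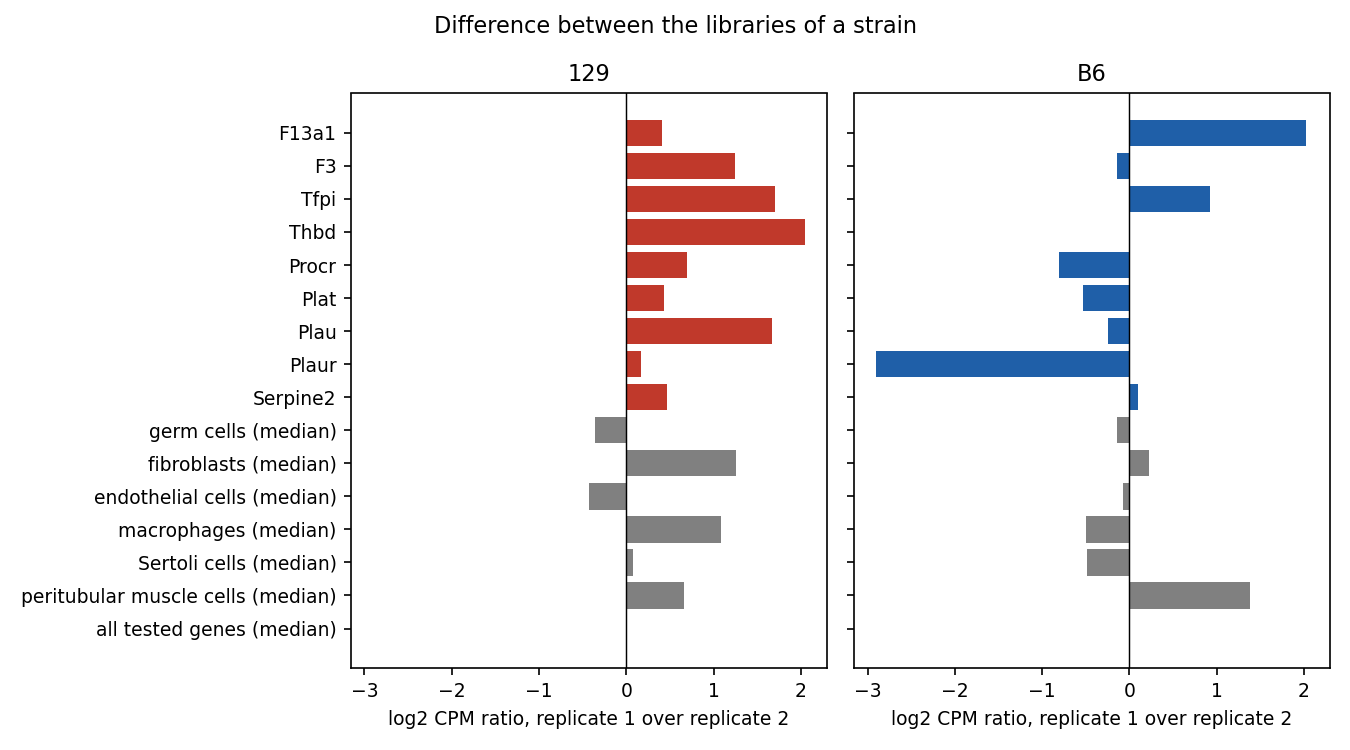
Log2 ratio of CPM in replicate 1 over replicate 2 within 129 (left) and within B6 (right). Coloured bars are the 9 genes, grey bars are medians over the marker lists with at least 2 tested genes and the last bar is the median over all genes tested, near 0 in both strains. Every gene lies above 0 in 129, and Plaur reaches -2.90 in B6.

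Markers of the other cell types of the testis were also set beside these genes. The Sertoli cell list of 11 genes summed to 223 and 132 CPM in 129, against 20.8 and 24.1 CPM in B6, with Clu and Wt1 the most abundant. Clu rose, at 193 and 90.5 CPM in 129, against 3.78 and 10.2 CPM in B6 (edgeR adjusted p = 0.0325), and the other 9 tested did not pass in edgeR. At an unadjusted p under 0.05 there were 6 of the 10, beside 28.1% of all genes tested. DESeq2 passed 2, Clu and Rhox8, beside 15.3% of all genes tested, and the list's median log2 fold change was 1.70. Amh, Amhr2, Dhh and Rhox8 passed the filter on low counts only through their 129 libraries, so their values are no independent support for a difference. In this list Amh, Cldn11, Fshr, Inha and Rhox8 stayed under 1 CPM. The peritubular muscle list summed to 139 and 70.8 CPM in 129, against 93.8 and 42.6 CPM in B6. Des rose (edgeR adjusted p = 0.0297) and the other 6, the most abundant Acta2 and Smtn included, did not pass in edgeR. DESeq2 passed Des and Smtn, both higher in 129, and Tagln, which was lower. Tagln was at 3.62 and 2.28 CPM in 129, against 28.8 and 6.24 CPM in B6. Leydig cell markers summed to 4.49 and 4.55 CPM in 129, against 9.36 and 6.34 CPM in B6, with 7 of 8 under 1 CPM, and Star and Cyp11a1 the most abundant. Of the 12 fibroblast markers Pdgfra and Fbln1 rose (edgeR adjusted p = 0.0442 and 0.0489) and 10 did not pass in edgeR, the most abundant Col3a1 and Col1a1 among them. DESeq2 passed 9 of the 12, of which Dcn, Fbln1, Pdgfra, Pdgfrb and Prrx1 were higher in 129 and Col1a1, Col3a1, Postn and Thy1 lower, and the list's median log2 fold change was -0.79. The part of any of these cells in the values of the 9 genes was not tested.

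**Figure D4:**
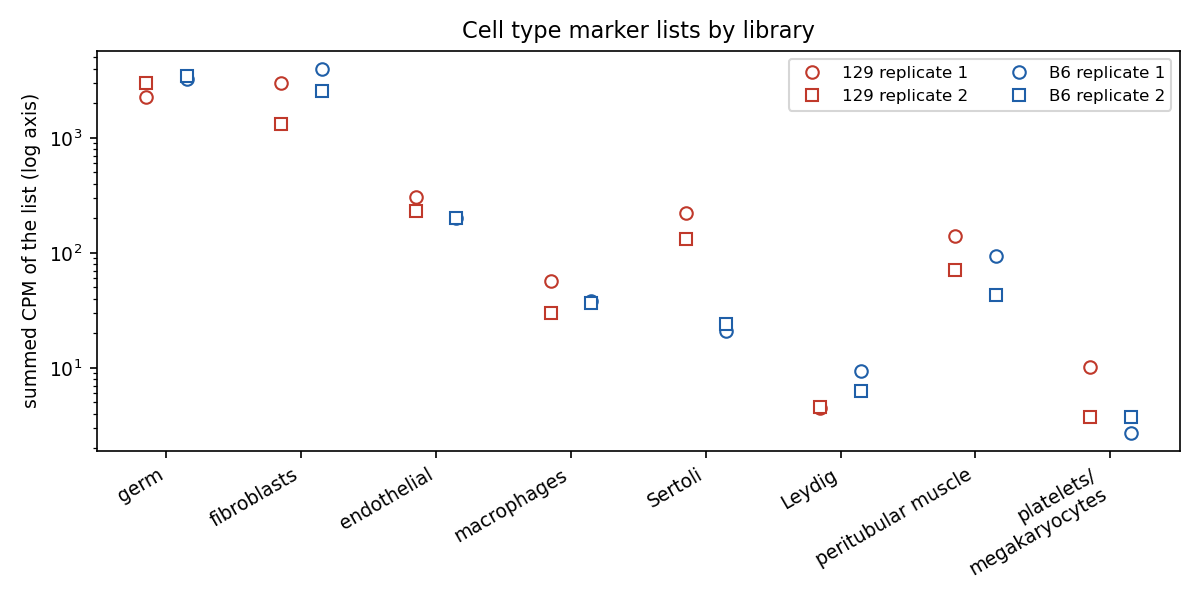
Summed CPM of the cell type marker lists in each library, on a log axis, with 129 in red left of B6 in blue. Germ cell and fibroblast markers are the most abundant lists in every library. Platelet, megakaryocyte and Leydig cell markers are the least abundant, and the Sertoli cell list is higher in both 129 libraries than in both B6 libraries.

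The other genes of coagulation and fibrinolysis were taken from a list by role. Of 47 such genes 30 passed the filter and were tested, and edgeR's quasi-likelihood test passed 2 higher, F5 and Kng1, and 1 lower, Tfpi2, while 27 did not pass. Over all genes tested it passed 2.86%. Their median log2 fold change was 0.31, beside 0.015 over all genes tested. DESeq2 passed 9 of the 30, beside 15.3% of all genes tested. At an unadjusted p under 0.05 in edgeR there were 12 of the 30, beside 28.1% of all genes tested. The list's median log2 fold change was -0.12 without 129 replicate 1 and 0.43 without 129 replicate 2. It was 0.33 without B6 replicate 1 and 0.15 without B6 replicate 2. Each of these 4 medians rests on a single library of 1 strain.

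Among clotting factors, F5 and Kng1 rose in 129, 7 of the 9 tested did not pass in edgeR, and the median log2 fold change was 1.66. At an unadjusted p under 0.05 there were 6 of the 9, beside 28.1% of all genes tested. These 6 were not all higher, since F2, the gene of thrombin, was lower in both 129 libraries. F2 was at 1.64 and 0.759 CPM in 129, against 3.62 and 3.61 CPM in B6 (log2 fold change -1.59, SE 0.54, edgeR adjusted p = 0.117). DESeq2 passed 4, namely F5, F7, Fga and Kng1, beside 15.3% of all genes tested. F5, which encodes factor V, the cofactor of factor Xa, was at 88.8 and 22.8 CPM in 129, against 1.25 and 2.08 CPM in B6 (log2 fold change 5.09, SE 0.79, edgeR adjusted p = 0.038). Its exons share 262 bases with Gm16548 of the other strand, and reads from the 2 genes may not have been kept apart. Kng1, a kininogen gene of the contact pathway, was at 57.5 and 22.2 CPM in 129, against 0.643 and 0.842 CPM in B6 (log2 fold change 5.75, SE 0.67, edgeR adjusted p = 0.029). Its close copy Kng2, which may share reads with it and was named after its values were seen, was at 162 and 71.6 CPM in 129, against 2.37 and 2.52 CPM in B6. Both genes had replicate 1 as the higher 129 library. The fibrinogen chain gene Fga stood at 3.77 and 2.89 CPM in 129, against 0.402 and 0.446 CPM in B6, and did not pass in edgeR (log2 fold change 2.96, SE 0.57, adjusted p = 0.0501). It did pass with DESeq2, with DESeq2 size factors, with upper-quartile factors, without robust estimation and with the replicate block. However, Fga and F7 passed the filter on low counts only through their 129 libraries, so their p is no independent support for a difference. F9 and F13b, the gene of the carrier chain of factor XIII, had no count in any library.

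Among clotting inhibitors, Tfpi2 fell in 129 and the median over the 5 tested was 0.15. This gene encodes a relative of the tissue factor pathway inhibitor and had 0 and 1 counts in 129, against 46 and 39 counts in B6 (edgeR adjusted p = 0.038). It passed the filter on low counts only through its B6 libraries, so its p is no independent support for the difference. The ratio of B6 over 129 was 78.8, with an exact 95% counting interval of 13.8 to 3148. Its level in B6 was low, at 1.85 and 1.93 CPM, and it was not tested under the stricter filter. The other 4 inhibitors did not pass in edgeR. Of the 5 tested, 4 had an unadjusted p under 0.05 in edgeR, Tfpi2 among them, beside 28.1% of all genes tested. DESeq2 passed 3, beside 15.3% of all genes tested, with A2m and Tfpi2 lower in 129 and Pros1 higher. The most abundant inhibitor was Pros1, which encodes protein S, at 109 and 47.7 CPM in 129, against 36.2 and 24.9 CPM in B6. Proc, the gene of protein C itself, was not tested because of its low counts.

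In the plasminogen system 0 of 9 tested genes passed in edgeR and 1 had an unadjusted p under 0.05, and DESeq2 passed 1 of them, Lrp1. Lrp1, an endocytic receptor that clears complexes of activators and their inhibitors, was at 2152 and 887 CPM in 129, against 367 and 567 CPM in B6 (log2 fold change 1.70, SE 0.43, edgeR adjusted p = 0.073). Anxa2, which binds plasminogen activator at the cell surface, was at 243 and 140 CPM in 129, against 158 and 106 CPM in B6. Plg, the gene of plasminogen, was low, at 0.290 and 0.664 CPM in 129, against 2.05 and 0.792 CPM in B6.

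Of the 2 tested protease-activated receptors 0 passed in edgeR, while 1 had an unadjusted p under 0.05 and DESeq2 passed 1, F2rl1. F2rl1 was lower in both 129 libraries, at 12.85 and 7.35 CPM, against 15.1 and 40.8 CPM in B6 (log2 fold change -1.46, SE 0.55). F2r, the thrombin receptor, was at 133 and 43.1 CPM in 129, against 55.1 and 47.9 CPM in B6. Of the 5 genes for modification and secretion of clotting factors, 0 passed in edgeR, in DESeq2 or at an unadjusted p under 0.05. Lman1, a cargo receptor for factors V and VIII, was at 202 and 231 CPM in 129, against 181 and 190 CPM in B6, and Vkorc1l1, of the vitamin K cycle, was at 57.1 and 66.7 CPM in 129, against 55.8 and 41.4 CPM in B6.

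Promoter sequence was a feature that the choice of the genes did not use. RefSeq promoters of build GRCm38.p6 were matched by symbol for 6 of the 9 genes, with 8 starts, and the 250 bases before each start were searched on both strands. The TATA box was searched as TATAAA. The GC box of Sp1 was searched as GGGCGG and the AP-1 motif as TGANTCA. The E-box was searched as CACGTG, and the CCAAT box by the letters of its name. GC boxes were found for 4 of the 6 genes (F3, Tfpi, Plaur and Serpine2), some of them overlapping one another, and in 32.7% of 32851 promoters of the table. AP-1 letters were found for 3 of the 6 (F3, Plaur and Procr) and in 6.75% of all promoters. A TATA box was found for Tfpi (12.4% of all promoters), a CCAAT box for F13a1 (33.8%) and an E-box for 0 of the 6 (6.02%). The F13a1 window held 3 CpG and Serpine2 held 34, beside a median of 6 over all promoters. Tfpi and F13a1 had 2 starts each, while the shares over all promoters are per start. GENCODE exons covered 116 bases of the F3 window and 100 of the Procr window, so these windows are not all outside transcribed sequence. A match describes the letters and is not a bound site. The AP-1 matches of the 3 genes are shown, a choice made after the matches were seen, because all 3 genes hold letters found in few promoters, in stretches of 30 bases 5′ to 3′ along each gene with the match in capitals, at chr3:121723385-121723414, chr7:24462403-24462432 and chr2:155751052-155751081, all on the plus strand.
F3: cgctgtTGAATCAcggtTGAGTCAcccctt
Plaur: acccctggagcTGACTCActctttagcaaa
Procr: ccccaccccccTGACTCAgcggcgacctac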

How the data were processed

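Per the labels, the authors deposited raw read counts per gene, not normalized, for 4 libraries. They came from TRIzol RNA, a TruSeq stranded kit, and were read singly over 76 bases. The submitters' processing notes name mm10 as build and list HISAT2 2.2.1, HTSeq 0.13.5, cutadapt 3.4, DESeq2 1.30.1 and bcl2fastq 2.20. The annotation and the strand mode used were not given in the sources used here. Reads of 129 mapped to a C57BL/6 genome can be lost at variants.

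The counts were fitted with edgeR 4.0.16 in R 4.3.3 (filterByExpr, TMM, robust quasi-likelihood test, newer form) on strain alone. Benjamini-Hochberg adjustment ran over 16005 genes, with a threshold of 0.05, and the fit was tested on simulated counts. Each SE came from the fold change and the F statistic. With 2 libraries a strain, an exact two-sided permutation test of 1 gene cannot give less than 0.333. Positions and exon lengths are from GENCODE M21.

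The genes and lists were chosen with earlier results of these data known. By rule the text names the 9 genes, the called and the 6 most abundant other pathway genes, the 2 most abundant markers of each list and the 3 genes nearest to F13a1 (log2 CPM with a prior count of 2). Of the abundant pathway genes, 1 is not reported here. Other names (F2, Fga, Pros1, Plg, Kng2, F9, F13b, Proc and further markers) were chosen after their values were seen. Libraries with the same number did not deviate together (correlation -0.014 across genes). Alternatives, with DESeq2 1.42.0 and limma 3.58.1, are described in the closing section.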

Additional observations from a re-analysis of the deposited data

How the results depend on the processing

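The number of genes called over all genes tested was 457, and it was 1021 with upper-quartile factors, 260 without a filter, 272 with a stricter filter (5 CPM in 2 libraries), 2455 with DESeq2, 263 with limma-voom and 844 with the replicate block, whose numbers did not pair the samples. Leaving out 1 library gave 0 to 827 calls (0 without B6 replicate 1, where 3251 genes had an unadjusted p under 0.05, 1 without B6 replicate 2, 13 without 129 replicate 1 and 827 without 129 replicate 2). DESeq2 size factors, non-robust estimation and the legacy form of the test, which was added after the data were seen, gave 406 to 575.

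Of the other coagulation and fibrinolysis genes 3 were called, with 5 under upper-quartile factors, 9 with DESeq2, 5 with the replicate block and 0 to 5 when 1 library was left out. The 3 genes F5, Kng1 and Tfpi2 were all called under each setting with the 4 libraries, except F5 with limma-voom and Tfpi2 under the stricter filter.

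For the 9 genes, 5 of 117 log2 fold changes under other settings had the other sign than in the main fit. Signs turned only when 1 library was left out: F3 to 0.21 and Tfpi to 0.56 without 129 replicate 2, Tfpi to 0.48 and Plaur to -0.17 without B6 replicate 1, and Serpine2 to -0.11 without 129 replicate 1. Over the 4 libraries left out in turn, log2 fold changes ran from -1.03 to 0.21 for F3, -1.14 to 0.56 for Tfpi, -0.17 to 2.69 for Plaur and -0.11 to 0.36 for Serpine2. F13a1 had log2 fold changes of 10.33 without B6 replicate 1 and 8.40 without B6 replicate 2, where a lone B6 library is assumed to vary like the 129 libraries. The log2 fold change of Thbd ran from 1.97 without 129 replicate 1 to 4.01 without 129 replicate 2. The causes were not tested, and the 6 reads of F13a1 in B6 limit its fold change.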
